A study of Mus musculus with 26 samples.

Results

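The 10 genes examined here make, clear, carry or sense extracellular adenosine. They are the ectoenzyme genes Nt5e, Entpd1, Enpp1, Alpl and Cd38, the clearance enzymes Ada and Adk, the nucleoside transporter Slc29a1 and the receptors Adora1 and Adora2b. They were chosen by name for these roles, with earlier results of these data known. Each matched 1 row among the 47729 mouse genes of the deposited count table. Of the 10 genes, 9 passed the filter on low counts. Adora1 did not, and its counts are given without a test.

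The cells were E-A14, a Her2-expressing mouse mammary tumour line, implanted into a mammary fat pad of FVB/N mice aged 6 to 8 weeks. Depleted mice received 100 µg each of antibodies to CD4 and CD8a, which remove T cells of these classes, and control mice received 100 µg each of rat IgG2a and rat IgG2b. Either treatment was given 2 times a week, began 2 weeks ahead of implantation and went on while the tumours grew. Tumours were taken on day 20 in depleted mice (n = 6) and on day 47 in control mice (n = 6), so that antibody and day of harvest cannot be told apart. Cells with Her2 but no CD90, CD105 or CD45 on their surface were parted by sorting into EpCAM-negative and EpCAM-positive fractions, called mesenchymal and epithelial by the study. This gave 4 tumour groups of 6 libraries each, depleted EpCAM-negative, depleted EpCAM-positive, control EpCAM-negative and control EpCAM-positive, beside 2 libraries of the line in culture. All tumours came from 1 cell line, and only CD4 and CD8a are named as targets of the depletion. The labels do not say whether the 2 cultures were grown separately. The spread used in tests against them was shared by the 5 groups and came mostly from the tumour libraries. These p-values therefore do not measure how separate cultures vary.

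ATP that leaves stressed or dying cells is a danger signal for immune cells, and adenosine, made from it outside the cell, is a brake on them. CD39, the product of Entpd1, strips ATP and ADP to AMP, and CD73, the product of Nt5e, turns AMP into adenosine. ENPP1 offers another route to AMP, cutting ATP or cGAMP and releasing pyrophosphate from ATP, while CD38 consumes NAD and so feeds the same route. Alkaline phosphatase (Alpl) takes phosphate from AMP and from pyrophosphate. Adenosine leaves the extracellular space through the equilibrative transporter ENT1 (Slc29a1), and is then phosphorylated by adenosine kinase (Adk) or deaminated to inosine by adenosine deaminase (Ada). T cells are known to be restrained by adenosine, and CD73 on breast tumour cells is known as a target of antibodies meant to relieve this.

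Library totals ran from 17559520 to 25601999 counts in depleted tumours, from 26895429 to 38740143 in control tumours, and were 27253363 and 35059744 in the cultures, so that depth also parts depleted from control libraries. The unit CPM is a count divided by its library's TMM-scaled total (counts per 1e6), and ± is the SD over libraries. Epcam averaged 140.4 ± 83.4 CPM in EpCAM-negative against 2437 ± 241 CPM in EpCAM-positive cells of depleted tumours, and 1.63 ± 0.546 against 1183 ± 239 CPM in those of control tumours (n = 6 each). Epcam RNA lay between 40.0 and 284 CPM in the EpCAM-negative libraries of depleted tumours, against 1.06 to 2.39 CPM in those of control tumours. The rat Neu transgene was present in every tumour library, at 266 to 745 CPM. Markers of all leukocytes (5 genes, Ptprc among them) summed to means of 25.5 and 20.1 CPM in EpCAM-negative and EpCAM-positive cells of depleted tumours, against 0.875 and 4.98 CPM in those of control tumours. In bulk RNA, fewer cells of a type and less RNA per cell cannot be told apart.

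Promoters are shown for Nt5e, Enpp1 and Alpl, ectoenzyme genes whose levels are described at length below. They are the 250 bases before the RefSeq start on the mouse build GRCm38.p6, written 5′ to 3′ on the gene's strand, with capitals for motif matches on either strand. The Nt5e promoter is at chr9:88327359-88327608 (+), that of Enpp1 at chr10:24712160-24712409 (-), and Alpl has an upstream start with chr4:137796385-137796634 (-) before it and a downstream start with chr4:137766476-137766725 (-) before it.
Nt5e: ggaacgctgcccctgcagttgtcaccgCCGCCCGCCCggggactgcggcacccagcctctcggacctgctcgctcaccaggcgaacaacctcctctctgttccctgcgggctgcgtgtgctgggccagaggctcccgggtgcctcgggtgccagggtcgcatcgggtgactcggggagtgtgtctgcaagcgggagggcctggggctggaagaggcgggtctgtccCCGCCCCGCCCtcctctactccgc
Enpp1: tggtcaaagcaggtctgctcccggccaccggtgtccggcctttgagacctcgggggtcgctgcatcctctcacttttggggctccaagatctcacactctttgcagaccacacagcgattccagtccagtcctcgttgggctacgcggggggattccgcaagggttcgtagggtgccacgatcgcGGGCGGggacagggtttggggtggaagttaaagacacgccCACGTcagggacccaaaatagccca
Alpl, upstream start: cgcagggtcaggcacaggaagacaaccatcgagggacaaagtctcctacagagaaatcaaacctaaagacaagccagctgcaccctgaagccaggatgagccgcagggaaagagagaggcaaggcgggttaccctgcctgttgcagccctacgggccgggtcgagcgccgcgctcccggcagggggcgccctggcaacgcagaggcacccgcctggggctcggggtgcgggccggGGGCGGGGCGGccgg
Alpl, downstream start: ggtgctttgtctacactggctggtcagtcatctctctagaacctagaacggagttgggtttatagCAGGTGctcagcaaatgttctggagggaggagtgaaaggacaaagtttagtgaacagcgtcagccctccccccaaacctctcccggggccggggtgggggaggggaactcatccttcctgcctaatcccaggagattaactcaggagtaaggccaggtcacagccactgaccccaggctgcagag
The motifs searched were the E-box CACCTG of ZEB and SNAI factors, the hypoxia core ACGTG, the GC box GGGCGG, the cAMP element TGACGTCA and the AP-1 site TGANTCA. Nt5e held 4 GC boxes, which overlap in pairs, and no other match, with 72% G or C. Enpp1 held 1 GC box and 1 hypoxia core, 25 bases before the start, written there as CACGT. The upstream Alpl start had 2 overlapping GC boxes, and the downstream start had 1 E-box, written as CAGGTG. Of all 32851 promoters of this length, 32.7% held a GC box, 17.2% the E-box, 16.6% the hypoxia core, 6.75% the AP-1 site and 1.55% the cAMP element. All 10 genes had a promoter in the table, 21 in total because several have more than 1 start. A match is a description of the letters and not a binding site.

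**Figure D1:**
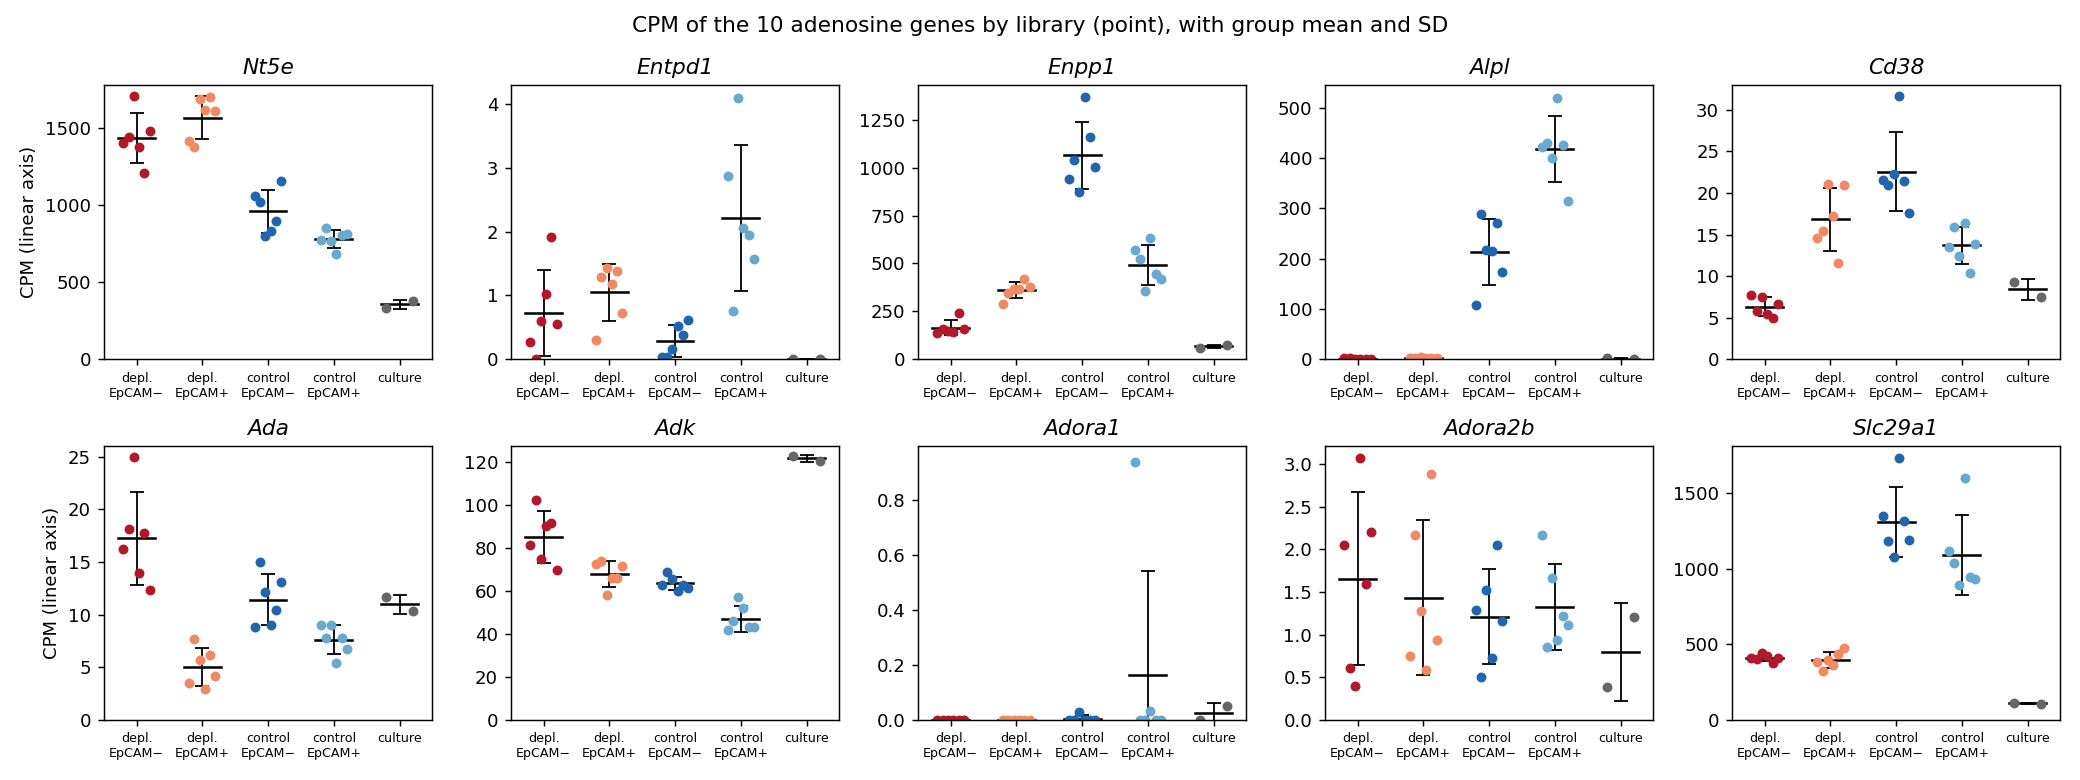
CPM (linear axis) of each of the 10 genes in each library (points), with the mean and SD of each group (bars), for depleted EpCAM-negative, depleted EpCAM-positive, control EpCAM-negative, control EpCAM-positive and cultured cells. Nt5e is highest in depleted tumours, whereas Alpl lies at no more than 3.64 CPM in depleted libraries, against 109 to 520 CPM in control libraries.

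Per kilobase of exon, the scale on which genes can be compared, Nt5e had the highest mean of the 10 genes in depleted tumours, at 167 CPM per kb in EpCAM-negative and 182 CPM per kb in EpCAM-positive cells. Slc29a1 was next there, at 102 and 99.5 CPM per kb. In control tumours Slc29a1 was highest, at 327 CPM per kb in EpCAM-negative and 272 CPM per kb in EpCAM-positive cells. Control EpCAM-negative cells had 111 CPM per kb of Nt5e, 104 of Enpp1 and 52.7 of Alpl. Control EpCAM-positive cells had 104 CPM per kb of Alpl, 90.6 of Nt5e and 47.9 of Enpp1. In the cultures the order was Nt5e (41.1 CPM per kb), Slc29a1 (27.3), Adk (14.3), Enpp1 (6.40) and Ada (5.50). Entpd1 and the receptors stayed below 1 CPM per kb in every group mean.

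The sorted fractions were compared first within each treatment. In depleted tumours Ada and Adk were higher and Enpp1, Alpl and Cd38 lower in EpCAM-negative than in EpCAM-positive cells, 5 of the 9 tested genes. Of all 16637 genes tested in this comparison 28.5% passed, 14.2% higher and 14.3% lower. In control tumours Nt5e, Enpp1, Cd38, Ada and Adk were higher and Entpd1 and Alpl lower in EpCAM-negative cells, 7 of 9, where 27.9% of all tested genes passed, 13.3% higher and 14.5% lower. The median log2 fold change of the 9 genes was −0.13 in depleted and 0.30 in control tumours, against 0.01 and −0.01 over all tested genes. The change between fractions differed between the treatments for 4 of 9 genes, Ada with the higher change in depleted tumours and Nt5e, Enpp1 and Cd38 with the lower, where 18.0% of all tested genes passed, 9.33% higher and 8.69% lower. A gene passed when its adjusted p in edgeR's quasi-likelihood test, corrected over all tested genes, was under 0.05. Scaling by library totals alone moved the median of all genes by −0.14 in the control contrast and by 0.17 in the difference, and the share of higher among all calls was then 26.7% in place of 47.9% and 75.1% in place of 51.8%.

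Depleted tumours were then compared with control tumours in each fraction. In EpCAM-negative cells Nt5e, Ada and Adk were higher and Enpp1, Alpl, Cd38 and Slc29a1 lower in depleted tumours, 7 of 9 genes. Here 45.1% of all tested genes passed, 21.9% higher and 23.2% lower. In EpCAM-positive cells Nt5e and Adk were higher and Enpp1, Alpl, Ada and Slc29a1 lower, 6 of 9, where 40.0% of all tested genes passed, 17.6% higher and 22.4% lower. The median log2 fold change of the 9 genes was 0.42 and −0.45 in EpCAM-negative and EpCAM-positive cells, against 0.03 and −0.02 over all tested genes. With library totals alone the median of all genes moved by 0.19 in EpCAM-negative cells, and 65.7% in place of 48.5% of all calls there were higher.

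Each tumour group was also set against the cultured line. Nt5e, Entpd1, Enpp1 and Slc29a1 were higher in all 4 tumour groups and Adk was lower in all 4. Depleted EpCAM-negative cells had no other call, 5 of 9 (4 higher, 1 lower), where 42.4% of all tested genes passed, 21.8% higher and 20.6% lower. Depleted EpCAM-positive cells had 8 of 9 (6 higher, 2 lower) with Alpl and Cd38 higher and Ada lower besides, where 39.5% passed, 20.9% higher and 18.6% lower. Alpl and Cd38 were also higher in control EpCAM-negative cells, 7 of 9 with 50.7% of all tested genes passing (26.5% higher, 24.2% lower). They were higher as well in control EpCAM-positive cells, 7 of 9 with 50.2% passing (27.8% higher, 22.4% lower). These 4 comparisons share the same 2 cultures and are given side by side. With library totals alone the median of all genes moved by −0.13 in depleted EpCAM-positive, −0.28 in control EpCAM-negative and −0.17 in control EpCAM-positive cells. The share of higher among all calls was then 42.7% in place of 51.4% in depleted EpCAM-negative and 41.2% in place of 52.9% in depleted EpCAM-positive cells. For control tumours this share was 36.3% in place of 52.3% in EpCAM-negative and 46.3% in place of 55.3% in EpCAM-positive cells.

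Nt5e (ENSMUSG00000032420) encodes CD73, the enzyme that completes the path from ATP to adenosine. In depleted tumours its level lay between 1206 and 1708 CPM in EpCAM-negative libraries (median 1419) and between 1375 and 1696 CPM in EpCAM-positive libraries (median 1609). In control tumours it lay between 797 and 1153 CPM in EpCAM-negative (median 957) and between 678 and 848 CPM in EpCAM-positive libraries (median 788), and the cultures had 332 and 376 CPM. Every depleted library was above every control library, and every tumour library above both cultures. The log2 fold change of depleted over control tumours was 0.58 ± 0.09 (SE) in EpCAM-negative cells (1.5-fold, adjusted p = 6.52e-06) and 1.01 ± 0.09 in EpCAM-positive cells (2.01-fold, adjusted p = 1.56e-09). Between fractions it was 0.30 ± 0.09 in control tumours (adjusted p = 0.0134), with overlapping ranges, and −0.13 ± 0.09 in depleted tumours (adjusted p = 0.329). The difference of these contrasts was −0.42 ± 0.13 (adjusted p = 0.0193). The call between control fractions was lost when only the compared groups were fitted (0.27, adjusted p = 0.0505) and with library totals alone (0.16, adjusted p = 0.207), and that of the difference with library totals alone (−0.25, adjusted p = 0.175). Over the cultures Nt5e was 4.06-fold higher in depleted EpCAM-negative, 4.43-fold in depleted EpCAM-positive, 2.71-fold in control EpCAM-negative and 2.21-fold in control EpCAM-positive cells, with adjusted p from 1.39e-11 to 9.81e-08.

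Alpl (ENSMUSG00000028766) encodes tissue-nonspecific alkaline phosphatase, which also acts in mineral formation by removing pyrophosphate. In depleted tumours its level lay between 0.296 and 1.31 CPM in EpCAM-negative (median 1.04) and between 1.61 and 3.64 CPM in EpCAM-positive libraries (median 2.17). In control tumours it lay between 109 and 288 CPM in EpCAM-negative (median 217) and between 315 and 520 CPM in EpCAM-positive libraries (median 424), and the cultures had 1.12 and 0.665 CPM. No depleted library came near any control library, and depleted EpCAM-negative libraries overlapped the cultures. Depleted tumours were 218-fold lower than control tumours in EpCAM-negative cells (log2 fold change −7.77 ± 0.28, adjusted p = 2.20e-16) and 175-fold lower in EpCAM-positive cells (−7.45 ± 0.27, adjusted p = 1.06e-16). The depleted levels rest on 123 and 302 counts summed over the 6 libraries of each fraction. EpCAM-negative cells were lower than EpCAM-positive cells in depleted tumours (−1.29 ± 0.31, adjusted p = 0.00192) and in control tumours (−0.98 ± 0.19, adjusted p = 0.000323), in every case without overlap of ranges. The difference of these contrasts was −0.31 ± 0.36 (95% interval −1.02 to 0.39, adjusted p = 0.621). Against the cultures the log2 fold change was 0.14 ± 0.45 in depleted EpCAM-negative cells (95% interval −0.74 to 1.03, adjusted p = 0.837). It was 1.44 ± 0.42 in depleted EpCAM-positive cells (adjusted p = 0.00706), a call lost without culture 2 (1.05, adjusted p = 0.164). In control tumours it was 7.91 ± 0.46 in EpCAM-negative (adjusted p = 2.89e-13) and 8.89 ± 0.48 in EpCAM-positive cells (adjusted p = 8.99e-14).

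Fibroblast markers moved in the same direction as Alpl between treatments. The 10 markers summed to 148 to 198 CPM in depleted EpCAM-negative and 63.0 to 156 CPM in depleted EpCAM-positive libraries. In control tumours they summed to 1265 to 4851 CPM in EpCAM-negative and 1197 to 3179 CPM in EpCAM-positive libraries, and in the cultures to 17.6 and 18.5 CPM. Of the 8 tested, 5 were lower in depleted EpCAM-negative and 4 in depleted EpCAM-positive cells, and 0 were higher in either. Of all tested genes 23.2% and 22.4% were lower in these comparisons, and 21.9% and 17.6% higher. Col1a1 made up 48.6% of the sum in control EpCAM-negative cells and Dcn 75.3% in control EpCAM-positive cells. Between fractions the direction was not that of Alpl, which was lower in EpCAM-negative cells under both treatments. There 2 markers were higher and 0 lower in depleted tumours, and 4 higher and 2 lower in control tumours. The shares of all tested genes there were 14.2% higher and 14.3% lower in depleted and 13.3% and 14.5% in control tumours. Thy1, which encodes the CD90 used to exclude such cells, had 5 and 3 counts in all over the EpCAM-negative and EpCAM-positive libraries of depleted tumours and 0 and 2 over those of control tumours. The part of these markers in the Alpl result was not tested.

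Entpd1 (ENSMUSG00000048120) encodes CD39, the ectoenzyme that degrades ATP and ADP and is best known on leukocytes and endothelium. It was rare in every group. Depleted EpCAM-negative libraries held 0 to 1.91 CPM (median 0.572) and depleted EpCAM-positive libraries 0.297 to 1.43 CPM (median 1.23). Control EpCAM-negative libraries held 0.0278 to 0.611 CPM (median 0.273), all below the 0.756 to 4.09 CPM of control EpCAM-positive libraries (median 2.00), and neither culture had a count. EpCAM-negative cells of control tumours were 7.65-fold lower than EpCAM-positive cells (log2 fold change −2.94 ± 0.73, adjusted p = 0.00343), on 53 and 441 counts over 6 libraries each. In depleted tumours the same contrast was −0.53 ± 0.69 (95% interval −1.88 to 0.83, adjusted p = 0.638), and the difference of the contrasts was 2.41 ± 0.99 (adjusted p = 0.097). Depleted over control tumours gave 1.33 ± 0.72 in EpCAM-negative (adjusted p = 0.135) and −1.07 ± 0.68 in EpCAM-positive cells (adjusted p = 0.222). Without depleted EpCAM-negative library 2, which had 0 counts, the difference of the contrasts passed (2.68, adjusted p = 0.0315), as did depleted over control in EpCAM-negative cells (1.60, adjusted p = 0.0433).

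Against 3 counts over both cultures (0.0427 CPM), the mean of Entpd1 was 16.9-fold higher in depleted EpCAM-negative and 24.6-fold in depleted EpCAM-positive cells. It was 6.77-fold higher in control EpCAM-negative and 51.9-fold in control EpCAM-positive cells. These folds take no account of the spread between tumour libraries. Depleted EpCAM-negative library 2 (0 counts) and control EpCAM-negative libraries 1 and 2 (0.0308 and 0.0278 CPM) lay below that floor. The call in control EpCAM-negative cells (adjusted p = 0.0101) was lost without culture 1 or culture 2 (adjusted p = 0.0689 and 0.0868). Markers of other cells that carry CD39 differed between the fractions too. Summed leukocyte markers lay between 0.241 and 1.77 CPM in control EpCAM-negative and between 1.41 and 9.86 CPM in control EpCAM-positive libraries, and all 5 were lower in the EpCAM-negative cells. Summed endothelial markers (10 genes) lay between 1.96 and 5.40 CPM in control EpCAM-negative and between 5.13 and 24.01 CPM in control EpCAM-positive libraries, 4 of 10 being lower and 0 higher in the EpCAM-negative cells. Summed macrophage markers (12 genes) lay between 35.3 and 73.5 CPM in control EpCAM-negative and between 86.4 and 214 CPM in control EpCAM-positive libraries. Mertk made up 48.4% of this sum in control EpCAM-negative and Csf1r 61.1% in control EpCAM-positive cells. In the cultures the sum was 32.8 and 36.9 CPM, of which Cd68 made up 93.7%. Of these 12 genes 7 were lower and 2 higher in the EpCAM-negative cells. Of all tested genes 14.5% were lower and 13.3% higher between these control fractions. Leukocyte markers summed to 17.5 to 47.1 CPM in depleted EpCAM-negative libraries, where Entpd1 averaged 0.723 ± 0.674 CPM (n = 6). They summed to 9.39 to 32.0 CPM in depleted EpCAM-positive libraries, where Entpd1 averaged 1.05 ± 0.446 CPM (n = 6). The part of these cells in the Entpd1 result was not tested.

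Enpp1 (ENSMUSG00000037370) encodes the ectoenzyme that cuts ATP to AMP and pyrophosphate and also degrades cGAMP, the messenger that activates STING. In depleted tumours it lay between 135 and 242 CPM in EpCAM-negative libraries (median 152), all below the 287 to 421 CPM of EpCAM-positive libraries (median 367). In control tumours the order was the opposite, with 871 to 1368 CPM in EpCAM-negative (median 1023) and 357 to 634 CPM in EpCAM-positive libraries (median 483). The cultures had 59.3 and 72.0 CPM, below every tumour library. EpCAM-negative cells were 2.20-fold lower than EpCAM-positive cells in depleted tumours (−1.14 ± 0.14, adjusted p = 7.58e-07) and 2.17-fold higher in control tumours (1.12 ± 0.14, adjusted p = 1.25e-06). The difference of these log2 contrasts was −2.25 ± 0.20 (adjusted p = 2.04e-08). Depleted tumours were 6.50-fold lower than control tumours in EpCAM-negative cells (−2.70 ± 0.15, adjusted p = 2.36e-13), with no overlap of ranges. In EpCAM-positive cells they were 1.36-fold lower (−0.45 ± 0.14, adjusted p = 0.0142), with overlapping ranges. Against the cultures Enpp1 was 2.49-fold higher in depleted EpCAM-negative, 5.49-fold in depleted EpCAM-positive, 16.2-fold in control EpCAM-negative and 7.48-fold in control EpCAM-positive cells, with adjusted p of at most 2.31e-05.

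Cd38 (ENSMUSG00000029084), the NAD-consuming ectoenzyme, showed the same reversal at a lower level. Depleted EpCAM-negative libraries held 4.92 to 7.74 CPM (median 6.19), against 11.5 to 21.1 CPM in depleted EpCAM-positive libraries (median 16.3). Control EpCAM-negative libraries held 17.6 to 31.7 CPM (median 21.5), against 10.4 to 16.4 CPM in control EpCAM-positive libraries (median 13.7), and the cultures had 9.23 and 7.52 CPM. Neither pair of fractions overlapped. EpCAM-negative cells were 2.67-fold lower in depleted tumours (−1.41 ± 0.16, adjusted p = 1.96e-07) and 1.65-fold higher in control tumours (0.72 ± 0.16, adjusted p = 0.00108), and these contrasts differed by −2.13 ± 0.23 (adjusted p = 2.75e-07). Depleted over control tumours was −1.84 ± 0.17 in EpCAM-negative cells (3.58-fold lower, adjusted p = 1.09e-09) and 0.29 ± 0.16 in EpCAM-positive cells (95% interval −0.02 to 0.60, adjusted p = 0.148). All 5 leukocyte markers were higher in depleted than in control EpCAM-negative cells, where 21.9% of all tested genes were higher. The part of these markers in the Cd38 result was not tested.

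Against the cultures the log2 fold change of Cd38 was −0.41 ± 0.22 in depleted EpCAM-negative cells (adjusted p = 0.147), which passed with library totals alone (−0.53, adjusted p = 0.0473). It was 1.01 ± 0.24 in depleted EpCAM-positive cells (adjusted p = 0.00138), a call lost without culture 2 (0.83, adjusted p = 0.0585). In control tumours it was 1.43 ± 0.24 in EpCAM-negative (adjusted p = 2.12e-05) and 0.71 ± 0.23 in EpCAM-positive cells (adjusted p = 0.0134), and the call in EpCAM-positive cells was lost without culture 2 (0.55, adjusted p = 0.185).

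**Figure D2:**
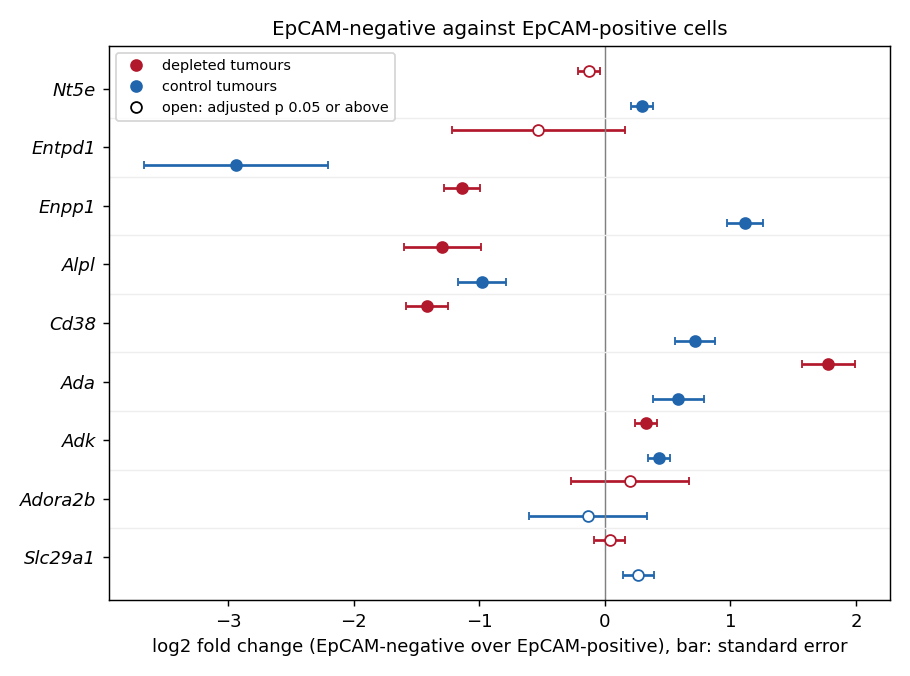
Log2 fold change (points) with its standard error (bars) of EpCAM-negative over EpCAM-positive cells for the 9 tested genes, in depleted and in control tumours (6 libraries per group, open points for an adjusted p of 0.05 or above). Enpp1 (−1.14 and 1.12) and Cd38 (−1.41 and 0.72) lie left of 0 in depleted and right of it in control tumours, while Ada and Adk lie right of 0 in both.

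Ada (ENSMUSG00000017697), adenosine deaminase, lay between 12.3 and 25.0 CPM in depleted EpCAM-negative libraries (median 17.0), all above the 2.89 to 7.68 CPM of depleted EpCAM-positive libraries (median 4.95). Control EpCAM-negative libraries had 8.80 to 15.0 CPM (median 11.3) and control EpCAM-positive libraries 5.37 to 9.02 CPM (median 7.76), which overlap, and the cultures had 11.6 and 10.4 CPM. EpCAM-negative cells were 3.43-fold higher in depleted tumours (1.78 ± 0.21, adjusted p = 3.05e-07) and 1.5-fold higher in control tumours (0.58 ± 0.20, adjusted p = 0.0341). The contrasts differed by 1.19 ± 0.29 (adjusted p = 0.00477). The call in control tumours rested on a narrow margin. It was lost without any of control EpCAM-negative libraries 2, 3 and 6 and EpCAM-positive libraries 2, 4, 5 and 6 (lowest 0.47, adjusted p up to 0.106), with no filter on low counts (0.58, adjusted p = 0.0514) and with library totals alone (0.45, adjusted p = 0.106).

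Depleted over control tumours, Ada was 0.60 ± 0.20 in EpCAM-negative (adjusted p = 0.019) and −0.60 ± 0.21 in EpCAM-positive cells (adjusted p = 0.0241). Ranges overlapped in either fraction. Without depleted EpCAM-negative library 3 the change in EpCAM-negative cells was 0.46 (adjusted p = 0.0696). The call in EpCAM-positive cells was lost without depleted EpCAM-positive library 1, 4 or 6 or control EpCAM-positive library 1 or 3 (nearest to 0 at −0.48, adjusted p up to 0.065), and when only the compared groups were fitted (−0.58, adjusted p = 0.0554). Against the cultures Ada was lower only in depleted EpCAM-positive cells (−1.13 ± 0.28, adjusted p = 0.00178). The other log2 fold changes over the cultures were 0.65 ± 0.30 in depleted EpCAM-negative (adjusted p = 0.0828), 0.05 ± 0.29 in control EpCAM-negative (adjusted p = 0.903) and −0.53 ± 0.28 in control EpCAM-positive cells (adjusted p = 0.118, or −0.70 and 0.04 with library totals alone).

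Adk (ENSMUSG00000039197) encodes adenosine kinase, which turns adenosine back into AMP inside the cell. Depleted tumours had 69.7 to 102 CPM in EpCAM-negative (median 85.9) and 58.0 to 73.9 CPM in EpCAM-positive libraries (median 68.7), against 60.0 to 68.7 CPM (median 62.9) and 41.6 to 57.0 CPM (median 44.6) in control tumours. The cultures had 123.0 and 120.4 CPM. Depleted libraries lay above control libraries of the same fraction without overlap, and every tumour library lay below both cultures. The log2 fold change of EpCAM-negative over EpCAM-positive cells was 0.33 ± 0.09 in depleted (adjusted p = 0.0066) and 0.43 ± 0.09 in control tumours (adjusted p = 0.000583). That of depleted over control tumours was 0.42 ± 0.09 in EpCAM-negative (adjusted p = 0.000356) and 0.53 ± 0.09 in EpCAM-positive cells (adjusted p = 3.27e-05). Against the cultures Adk was 1.43-fold lower in depleted EpCAM-negative, 1.79-fold in depleted EpCAM-positive, 1.92-fold in control EpCAM-negative and 2.58-fold in control EpCAM-positive cells, with adjusted p of at most 0.00122.

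Slc29a1 (ENSMUSG00000023942), the transporter that carries adenosine across the cell membrane in either direction, parted depleted from control tumours. Depleted libraries held 376 to 442 CPM in EpCAM-negative (median 409.8) and 327 to 478 CPM in EpCAM-positive cells (median 391). Control libraries held 1077 to 1735 CPM in EpCAM-negative (median 1256) and 891 to 1605 CPM in EpCAM-positive cells (median 994), and the cultures 112 and 106 CPM. Every depleted library was below every control library and above both cultures. Depleted tumours were 3.20-fold lower than control tumours in EpCAM-negative cells (−1.68 ± 0.13, adjusted p = 4.08e-11) and 2.73-fold lower in EpCAM-positive cells (−1.45 ± 0.12, adjusted p = 7.90e-10). Between fractions the log2 fold change was 0.04 ± 0.12 in depleted tumours (95% interval −0.20 to 0.28, adjusted p = 0.866) and 0.27 ± 0.12 in control tumours (adjusted p = 0.111). The contrast in control tumours passed without EpCAM-positive library 4, the highest of its group (0.41, adjusted p = 0.0037). Over the cultures Slc29a1 was 3.75-fold higher in depleted EpCAM-negative, 3.65-fold in depleted EpCAM-positive, 12.0-fold in control EpCAM-negative and 9.98-fold in control EpCAM-positive cells, with adjusted p of at most 3.00e-08. An antisense gene, Gm17080, shares 275 of its 4008 exon bases (6.86%) and averaged at most 0.189 CPM in any group.

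**Figure D3:**
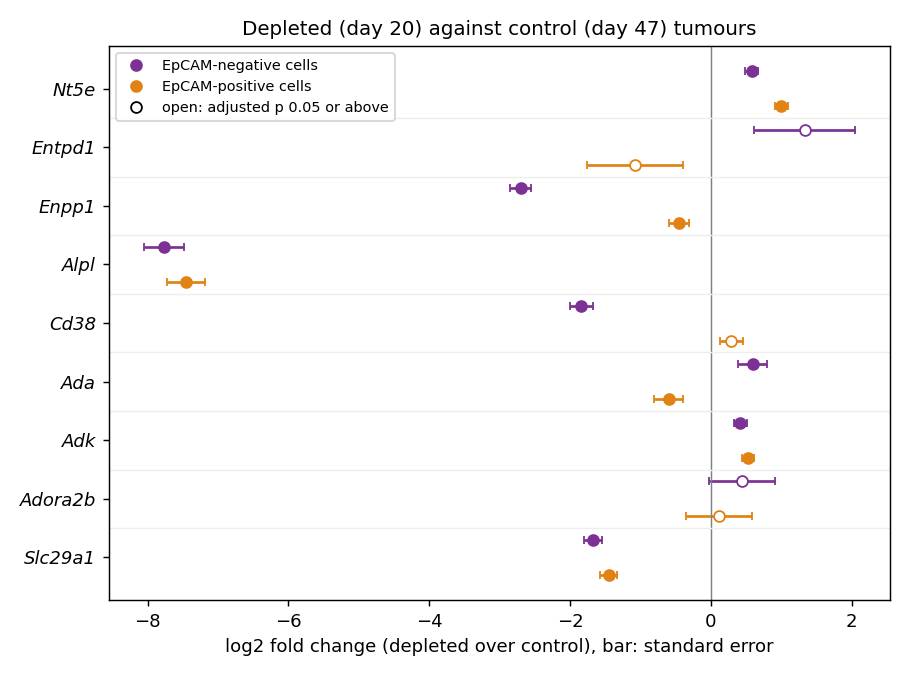
Log2 fold change (points) with its standard error (bars) of depleted (day 20) over control (day 47) tumours for the 9 tested genes, in the EpCAM-negative and in the EpCAM-positive fraction (6 libraries per group, open points for an adjusted p of 0.05 or above). Alpl lies at −7.77 and −7.45, Slc29a1 at −1.68 and −1.45, and Nt5e at 0.58 and 1.01.

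**Figure D4:**
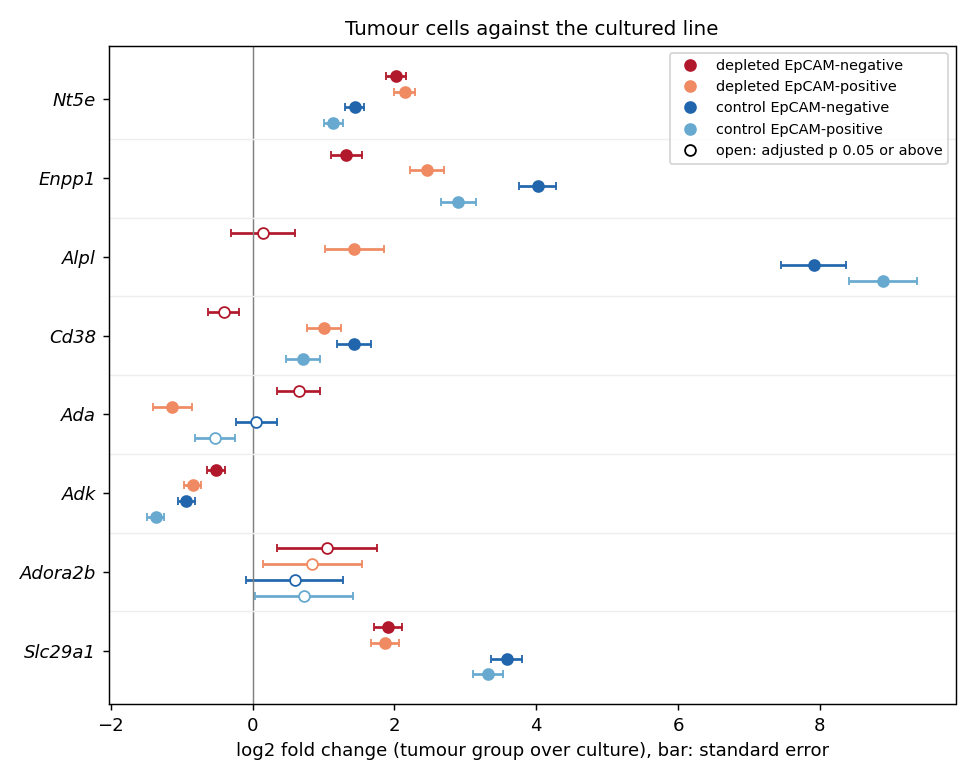
Log2 fold change (points) with its standard error (bars) of each of the 4 tumour groups over the 2 cultures, for 8 genes (Entpd1 is left out because both cultures had 0 counts). Nt5e, Enpp1 and Slc29a1 lie right of 0 in all 4 groups and Adk lies left of it in all 4, while Alpl lies at 7.91 and 8.89 in control EpCAM-negative and EpCAM-positive cells.

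Of the receptors, Adora2b passed the filter and was tested. This gene (ENSMUSG00000018500) encodes the low-affinity receptor that raises cAMP. It lay between 0.394 and 3.07 CPM in depleted EpCAM-negative (median 1.82) and between 0.589 and 2.89 CPM in depleted EpCAM-positive libraries (median 1.11). In control tumours it lay between 0.501 and 2.05 CPM in EpCAM-negative (median 1.225) and between 0.855 and 2.17 CPM in EpCAM-positive libraries (median 1.16), and the cultures had 1.20 and 0.385 CPM. All groups overlapped. Its log2 fold change between fractions was 0.20 ± 0.47 in depleted (95% interval −0.72 to 1.13, adjusted p = 0.813) and −0.13 ± 0.47 in control tumours (95% interval −1.05 to 0.78, adjusted p = 0.877). Depleted over control tumours gave 0.45 ± 0.47 in EpCAM-negative (adjusted p = 0.46) and 0.11 ± 0.47 in EpCAM-positive cells (adjusted p = 0.874), and against the cultures no group passed (adjusted p from 0.245 to 0.495). Between fractions, changes within the intervals given are not excluded.

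Adora1 (ENSMUSG00000042429), the high-affinity receptor that lowers cAMP, had 0 counts over the 12 libraries of depleted tumours. In depleted tumours 3 counts over a group would be 0.0236 CPM in EpCAM-negative cells and 0.0241 CPM in the EpCAM-positive fraction. Over control tumours it had 1 count in EpCAM-negative and 36 in EpCAM-positive libraries, and the cultures had 2. Of the 36 counts, 35 were in control EpCAM-positive library 1 (0.938 CPM). Mybph, on the other strand, shares 1162 of the 5785 exon bases of Adora1 (20.1%) and had 0.643 CPM in that library, and without a known strand setting reads from the shared bases cannot be told apart. The other 2 adenosine receptors were as rare. Adora2a, the receptor best known on T cells, averaged at most 0.0616 CPM in any group, and Adora3 at most 0.0869 CPM.

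Beyond the 10 genes, 94 genes of the pathway were listed in 8 groups, of which 73 were tested. In EpCAM-negative against EpCAM-positive cells 13 were higher and 17 lower in depleted tumours, and 13 higher and 11 lower in control tumours. In depleted against control tumours 14 rose and 23 fell in the EpCAM-negative fraction, and 15 rose and 25 fell in the EpCAM-positive fraction. Changes of these genes are given below as log2 fold changes with their SE from the same fit. The counts here and in each list below are to be read against the shares of all tested genes. Between fractions these were 14.2% higher and 14.3% lower in depleted tumours and 13.3% and 14.5% in control tumours. In depleted against control tumours they were 21.9% and 23.2% in EpCAM-negative and 17.6% and 22.4% in EpCAM-positive cells. Against the cultures 17 of the 73 genes were higher and 17 lower in depleted EpCAM-negative, and 22 and 12 in depleted EpCAM-positive cells. For control tumours these counts were 32 and 15 in EpCAM-negative and 26 and 15 in EpCAM-positive cells.

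Of the 11 genes listed as other ectonucleotidases 9 were tested. Some of these, Dpp4, Bst1 and Enpp2 among them, are not chiefly nucleotidases. Between fractions 1 (Dpp4) was higher and 6 lower on the EpCAM-negative side in depleted tumours, and 1 higher and 2 lower in control tumours. In depleted against control tumours 2 (Dpp4 and Bst1) rose and 7 fell in the EpCAM-negative fraction. In the EpCAM-positive fraction 2 (Bst1 and Entpd3) rose and 4 fell. Enpp3, which cuts ATP and other nucleotides, averaged 2.67 ± 0.346 CPM in EpCAM-negative cells and 20.3 ± 5.07 CPM in the EpCAM-positive fraction of depleted tumours. In control tumours it averaged 270 ± 90.5 and 299 ± 64.6 CPM, so that depleted over control tumours gave −6.66 ± 0.24 in EpCAM-negative (adjusted p = 2.20e-16) and −3.88 ± 0.21 in EpCAM-positive cells (adjusted p = 1.45e-13). Its contrast between fractions was −2.93 ± 0.22 in depleted (adjusted p = 2.19e-10) and −0.15 ± 0.18 in control tumours (adjusted p = 0.599), and the contrasts differed by −2.78 ± 0.29 (adjusted p = 1.52e-07). Enpp4 and Enpp5, of the same family, had contrasts between fractions of −1.34 ± 0.13 and −2.93 ± 0.22 in depleted tumours and 0.23 ± 0.13 and −0.42 ± 0.20 in control tumours. The contrasts differed for each (−1.57 ± 0.19, adjusted p = 1.20e-06, and −2.50 ± 0.29, adjusted p = 7.86e-07). Like Enpp1, these 3 genes were lower in depleted than in control EpCAM-negative cells.

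Of 25 intracellular nucleotidases and enzymes of adenosine metabolism 20 were tested. Between fractions 6 were higher and 3 lower on the EpCAM-negative side in depleted tumours, and 5 higher and 1 lower in control tumours. In depleted against control tumours 3 rose and 4 fell in the EpCAM-negative fraction, and 3 rose and 5 fell in the EpCAM-positive fraction. Nt5c2, a cytosolic nucleotidase, was lower in the EpCAM-negative fraction of depleted (−0.94 ± 0.08, adjusted p = 2.85e-09) and control tumours (−0.40 ± 0.08, adjusted p = 0.000508). Ampd2, which deaminates AMP, was higher there (0.27 ± 0.07, adjusted p = 0.00534, and 0.36 ± 0.07, adjusted p = 0.00035) and lower in depleted than in control tumours in either fraction (−0.53 ± 0.07 and −0.44 ± 0.07). Entpd5, a nucleoside diphosphatase of the secretory path, was also lower in depleted than in control tumours (−0.81 ± 0.11 in EpCAM-negative cells and −0.37 ± 0.11 in the EpCAM-positive fraction).

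Of the other nucleoside transporters 3 of 6 were tested. Between fractions 1 was higher and 1 lower in depleted tumours and 0 higher and 1 lower in control tumours, and in depleted against control tumours 1 fell in the EpCAM-negative and 2 in the EpCAM-positive fraction, with 0 higher in either. Slc29a2, another equilibrative transporter, averaged 4.83 ± 2.06 CPM in EpCAM-negative cells and 2.30 ± 0.802 CPM in the EpCAM-positive fraction of depleted tumours (1.07 ± 0.27, adjusted p = 0.00362), and 5.39 ± 1.44 and 4.43 ± 1.25 CPM in those of control tumours. Slc29a3, which acts in lysosomes, was lower in EpCAM-negative cells of depleted tumours (−0.48 ± 0.13, adjusted p = 0.00594). Slc28a3, a sodium-coupled transporter, averaged 0.00822 and 0.00865 CPM in EpCAM-negative and EpCAM-positive cells of depleted tumours. It averaged 0.0058 and 0.668 CPM in those of control tumours, the latter with an SD of 0.646 CPM. The other means lay below 3 counts over their group (0.0236, 0.0241 and 0.0155 CPM in the order given).

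Of 10 genes for routes by which ATP leaves cells 7 were tested. Gja1, the connexin 43 gene, averaged 1692 ± 149 CPM in EpCAM-negative cells and 2190 ± 253 CPM in the EpCAM-positive fraction of depleted tumours, and 1027 ± 150 and 2397 ± 220 CPM in those of control tumours, and the contrasts differed by 0.85 ± 0.13 (adjusted p = 3.77e-05). Gjb2, the connexin 26 gene, averaged 0.350 and 0.380 CPM in EpCAM-negative and EpCAM-positive cells of depleted tumours, against 50.3 and 10.9 CPM in those of control tumours (−7.18 ± 0.48, adjusted p = 4.53e-12, and −4.86 ± 0.46, adjusted p = 3.57e-09). Slc17a9, the vesicular nucleotide transporter, had a lower level in EpCAM-negative cells of both depleted (−1.65 ± 0.21, adjusted p = 7.44e-07) and control tumours (−0.81 ± 0.20, adjusted p = 0.00294). Between fractions 1 of the 7 was higher and 2 lower on the EpCAM-negative side in depleted tumours, and 1 higher and 3 lower in control tumours. In depleted against control tumours 2 rose and 2 fell in the EpCAM-negative fraction, and 1 rose and 2 fell in the EpCAM-positive fraction.

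P2 receptors, which sense the nucleotides before they become adenosine, had 3 higher and 4 lower of 11 tested in depleted against control tumours in each fraction. Between fractions 1 was higher and 1 lower in depleted tumours, and 2 higher and 1 lower in control tumours. P2rx4, an ATP-gated channel, averaged 32.5 ± 2.90 CPM in EpCAM-negative cells and 50.5 ± 3.21 CPM in the EpCAM-positive fraction of depleted tumours, against 114 ± 17.2 and 109.6 ± 14.7 CPM in those of control tumours. P2ry2, a receptor of ATP and UTP, was lower in depleted than in control tumours (−1.09 ± 0.13 in EpCAM-negative cells and −0.65 ± 0.13 in the EpCAM-positive fraction). P2ry6, a receptor of UDP, was higher in EpCAM-negative than in EpCAM-positive cells of depleted (2.23 ± 0.34, adjusted p = 1.29e-05) and control tumours (0.91 ± 0.31, adjusted p = 0.0298), and lower in depleted than in control tumours in either fraction.

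Of 11 genes of NAD synthesis and use, all tested, 3 were higher and 2 lower in the EpCAM-negative cells of depleted tumours and 2 higher and 1 lower in those of control tumours. In depleted against control tumours 3 were higher and 2 lower in EpCAM-negative and 3 higher and 5 lower in EpCAM-positive cells. Nmnat2, which makes NAD, was higher in EpCAM-negative cells of depleted (1.83 ± 0.21, adjusted p = 2.21e-07) and control tumours (1.73 ± 0.21, adjusted p = 6.98e-07). Nadsyn1, the NAD synthetase, was higher in depleted tumours by 0.68 ± 0.12 in EpCAM-negative cells and 0.60 ± 0.11 in the EpCAM-positive fraction. Nnmt, which methylates nicotinamide, averaged 0.0263 and 0.0357 CPM in EpCAM-negative and EpCAM-positive cells of depleted tumours, against 3.51 and 0.551 CPM in those of control tumours.

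Of 12 tested G proteins and adenylyl cyclases, 0 were higher and 2 lower on the EpCAM-negative side in depleted tumours, and 2 higher and 2 lower in control tumours. In depleted against control tumours 1 was higher and 3 lower in EpCAM-negative and 3 higher and 3 lower in EpCAM-positive cells. Gnaq, a G protein that activates phospholipase C, changed by −1.22 ± 0.13 (adjusted p = 2.18e-08) and −0.66 ± 0.13 (adjusted p = 0.000169) in these comparisons. Adcy9, an adenylyl cyclase, changed by −1.14 ± 0.18 (adjusted p = 7.93e-06) and −0.67 ± 0.17 (adjusted p = 0.0032). Gnai3, an inhibitory G protein, was higher in depleted than in control EpCAM-negative cells (0.47 ± 0.07, adjusted p = 4.18e-06).

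**Figure D5:**
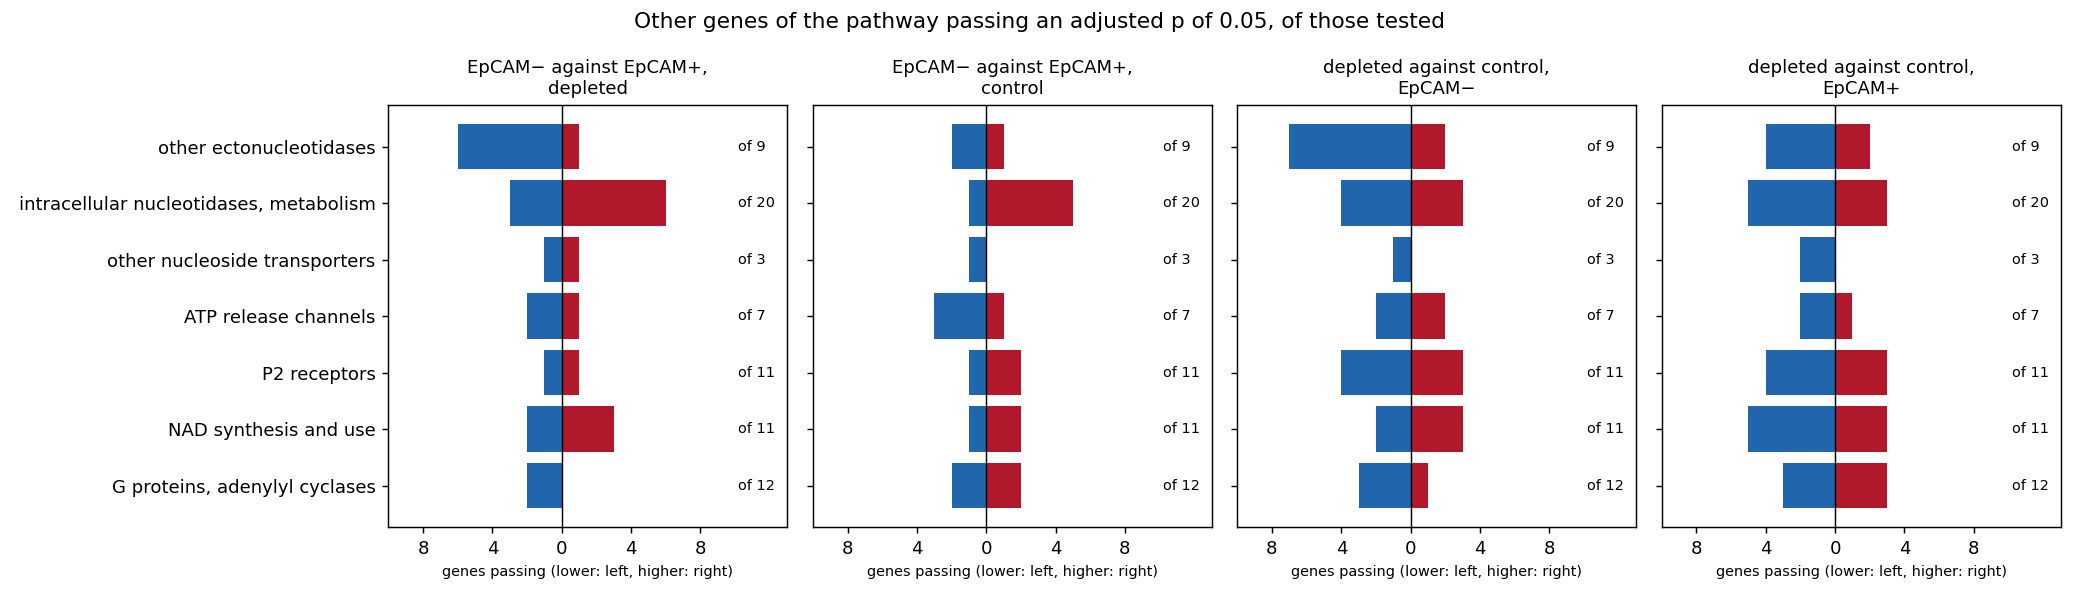
Number of genes of each list that passed an adjusted p of 0.05 (horizontal axis, lower to the left of 0 and higher to the right, number tested beside each bar) in EpCAM-negative against EpCAM-positive cells of depleted and of control tumours and in depleted against control tumours in the EpCAM-negative and in the EpCAM-positive fraction. Of the 9 genes tested in the list of other ectonucleotidases, 7 were lower in depleted than in control EpCAM-negative cells. The 2 that were higher were Dpp4 and Bst1. Not all of the 9 genes are chiefly nucleotidases. Of all tested genes 45.1% passed in that comparison, 21.9% higher and 23.2% lower.

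The genes whose levels followed Nt5e most closely over the 26 libraries were Dbn1, which encodes the actin-binding protein drebrin (Pearson r = 0.936 of log2 CPM), the palmitoyltransferase gene Zdhhc20 (r = 0.915) and the copper transporter gene Atp7a (r = 0.909). Dbn1 averaged 169 and 132 CPM in EpCAM-negative and EpCAM-positive cells of depleted tumours, 75.3 and 68.1 CPM in those of control tumours and 13.3 CPM in culture. For Entpd1 they were the DNA methyltransferase gene Dnmt3a (r = 0.820), the histone methyltransferase gene Kmt2c (r = 0.805) and Arhgef28 (r = 0.798). Entpd1 had at most 138 counts in a library and 0 in both cultures, so that counting error weighs on its correlations. These correlations are descriptions over libraries that fall into 5 groups and share their depth and treatment within a group. They were taken among 9908 candidate genes for Nt5e and 9909 for Entpd1, with a mean of at least 10 CPM in a group.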

How the data were processed

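Whole-number counts per gene were used as the authors deposited them, for 26 libraries of 47730 features, 47729 mouse genes and the rat Neu transgene. The second deposited table, on a log2-like scale, was not used. Per the labels' protocols, RNA was amplified with SMARTer v4, and Nextera XT libraries were read from 1 end over 50 bases on an Illumina HiSeq. Per the submitters' processing notes, STAR, the build mm9 and DESeq2 1.22.2 were used. How reads were counted, on which annotation and with or without strand, is not stated in the sources used here. Antisense partners may therefore share reads.

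Counts were scaled by TMM, and 16637 features passed filterByExpr by group. The 5 groups were fitted together with edgeR 4.0.16 (R 4.3.3), and 9 contrasts were tested with glmQLFit and glmQLFTest. Adjusted p is Benjamini-Hochberg over all tested features, with a threshold of 0.05. The fitting code was tried on counts simulated for depleted EpCAM-negative and depleted EpCAM-positive cells alone, from the fit's own means and spread. Changes were set only in genes that were not of low mean. The joint fit of the 5 groups, the cultures and the difference of contrasts were not covered. CPM per kb divides by the exon length of the mouse annotation supplied beside the files. Promoters are from RefSeq. Each library total is its depth, and counting floors of 3 counts cover counting error only. Alternatives were size factors in place of TMM, library totals alone (chosen after seeing the data), DESeq2 1.42.0, no filter, only the compared groups, a replicate block and leaving out each library.

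The genes and lists were chosen with earlier results of these data known. Named were all 10 genes, up to 3 genes of each pathway list with the smallest adjusted p in the contrasts between fractions or treatments, both other adenosine receptors, and the 3 genes most correlated with Nt5e and with Entpd1.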

Additional observations from a re-analysis of the deposited data

Results flagged for a closer look

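In 38 groups of values the highest or lowest library was compared with the others by Dixon's test, which chance alone flags in about 5% of groups. Enpp1 had 241.8 CPM in depleted EpCAM-negative library 5, against 135 to 159 CPM in the other libraries of that group. Cd38 had 31.7 CPM in control EpCAM-negative library 4, against 17.6 to 22.3 CPM in the others. Slc29a1 had 1605 CPM in control EpCAM-positive library 4, against 891 to 1122 CPM in the others. Adora1 had 0.938 CPM in control EpCAM-positive library 1, against 0 to 0.0322 CPM in the others. Its 0.0273 CPM in control EpCAM-negative library 3, where the others had 0, is a single count.

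The contrast of EpCAM-negative over EpCAM-positive cells differed between depleted and control tumours for 4 of the 9 tested genes in edgeR's quasi-likelihood test of the difference, on the log2 scale. The difference was −2.25 ± 0.20 for Enpp1 (adjusted p = 2.04e-08), −2.13 ± 0.23 for Cd38 (adjusted p = 2.75e-07), −0.42 ± 0.13 for Nt5e (adjusted p = 0.0193) and 1.19 ± 0.29 for Ada (adjusted p = 0.00477). For Enpp1 and Cd38 the contrast was negative in depleted and positive in control tumours.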

How the results depend on the processing

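The counts of the 10 genes called and of all genes called stayed within 1.5 times the reported count in all 9 comparisons under every alternative run. DESeq2 and size factors in place of TMM changed no call of the 9 tested genes. Calls lost or gained under the other alternatives stand beside their values above, save 1 gained with the replicate block, given below. With library totals alone, the log2 fold change of Ada in control EpCAM-negative cells over culture was −0.25 and the difference of contrasts of Adk was 0.065, each of opposite sign to the reported value and neither past the threshold. Leaving out 1 library at a time turned the sign of 6 small changes, none past the threshold. These ranged from −0.094 to 0.14 for Ada in control EpCAM-negative cells over culture, and from −0.25 to 0.53 for Alpl in depleted EpCAM-negative cells over culture. Between fractions they ranged from −0.077 to 0.52 (depleted) and −0.35 to 0.063 (control) for Adora2b, and from −0.012 to 0.098 for Slc29a1 (depleted), and for Adora2b in depleted over control EpCAM-positive cells from −0.22 to 0.31. Where 1 culture was left out, the other was assumed to vary like the tumour groups. The cause of these changes was not tested.

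Libraries with the same number in the 2 fractions correlated by 0.0175 to 0.0469 in depleted and 0.0497 to 0.172 in control tumours (deviations from group means), and 3 and 6 of the 6 pairs correlated best with their own number, a hint from the data and not the design. With the replicate block, 5 genes (5132 of all) were called between depleted fractions, 8 (4904) between control fractions, Slc29a1 being added (0.26, adjusted p = 0.0111 in edgeR), and 4 (3405) in the difference. With an additive replicate block, 7 (7185) were called in depleted against control EpCAM-negative and 6 (6372) in EpCAM-positive cells. The labels link no number in depleted mice to the same number in control mice. This block therefore has no basis in the design for contrasts between treatments. No paired analysis was possible against the cultures, which share no animals with the tumours. Adora1, with 0 to 36 counts in a tumour group, had too few counts for a test.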

Other observations

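A list of 12 genes of mineral formation and of phosphate or pyrophosphate transport was drawn up. Alpl and Enpp1 have opposed roles in this process. The list was made after the values of Alpl and Enpp1 had been seen, and mean levels are given with no test. Dmp1, a matrix protein gene of bone, averaged 1.03 ± 0.723 CPM in EpCAM-negative cells and 1.85 ± 0.563 CPM in the EpCAM-positive fraction of depleted tumours, against 82.1 ± 29.1 and 56.3 ± 20.9 CPM in those of control tumours (SD, n = 6 each). Mgp, an inhibitor of calcification, averaged 54.0 ± 28.1 and 43.7 ± 8.00 CPM in depleted tumours, against 2408 ± 745 and 455.5 ± 129 CPM in control tumours. Bglap, the osteocalcin gene, averaged 0.309 and 0.306 CPM in depleted tumours, against 17.9 and 6.30 CPM in control tumours. Ank, which is needed for the export of pyrophosphate, averaged 766 ± 145 and 333 ± 35.1 CPM in depleted tumours, against 2181 ± 416 and 919.9 ± 260 CPM in control tumours, and 58.4 CPM in culture.

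Runx2, a regulator of bone cell fate, averaged 31.2 and 22.7 CPM in EpCAM-negative and EpCAM-positive cells of depleted tumours, against 34.0 and 41.7 CPM in those of control tumours. Slc20a2, a phosphate transporter gene, averaged 188 and 167 CPM in depleted tumours, against 112.0 and 91.6 CPM in control tumours. Slc20a1, another phosphate transporter gene, averaged 154 and 140.3 CPM in depleted tumours, against 346 and 224 CPM in control tumours. Ibsp, the bone sialoprotein gene, averaged 0.0263 and 0 CPM in depleted tumours, against 2.47 and 1.10 CPM in control tumours. Sp7, a regulator of osteoblasts, averaged at most 0.0273 CPM in any group, and Abcc6, Phospho1 and Smpd3 at most 0.00447, 0.643 and 0.525 CPM.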
